A study of Mus musculus with 20 samples.

Results

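The genes described here are the cytochrome P450 genes of families 1, 2 and 3 that were present in mouse liver. They were taken as every gene of the count table with a symbol of the form Cyp1, Cyp2 or Cyp3 followed by a subfamily letter and a number, pseudogenes left out, that reached 1 CPM, a count scaled to the library total, in at least 2 libraries. Of 58 such genes, 41 met the rule, in 13 subfamilies: 2 of Cyp1a, 1 of Cyp1b, 4 of Cyp2a, 2 of Cyp2b, 13 of Cyp2c, 7 of Cyp2d, 3 of Cyp2j, 4 of Cyp3a and 1 each of Cyp2e, Cyp2f, Cyp2g, Cyp2r and Cyp2u. All 41 also passed the filter on low counts and were tested. Just inside the rule were Cyp2d34, with 3 libraries at 1 CPM, and Cyp1b1 and Cyp2c55, with 4 each; just outside were Cyp2d12, Cyp2j8, Cyp2s1 and Cyp3a57, with 1 library each.

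Poly(A) RNA was sequenced from the livers of 20 male mice, aged at least 9 weeks, which carried a null allele of Cse on a 129/C57BL/6 background. Cse, listed as Cth, encodes cystathionine γ-lyase, the last enzyme on the way from methionine to cysteine. All had been kept on a calorie-restricted control diet for 3 days and then received the diet of their group for 2 days, still calorie-restricted. Cse+/- mice, with 1 working allele, received the control diet (n = 2), a diet without cysteine (no Cys, n = 4) or a diet without tryptophan (no Trp, n = 3), and Cse-/- mice, in which the gene is lost in the whole body, received food without cysteine (n = 4), food without tryptophan (n = 3) or the latter with l-buthionine sulfoximine (BSO, n = 4), an inhibitor of the first step of glutathione (GSH) synthesis. The sample labels call the control genotype wild type and the study's list of mice calls it heterozygous; no Cse-/- mice on the control diet and no Cse+/- mice with BSO were analysed here. Cth was at 88.3 to 332 CPM in the Cse+/- livers and at 6.37 to 14.4 CPM in the Cse-/- livers. Xist was at most 0.948 CPM and Ddx3y at least 54.0 CPM, in every library. The libraries held 11785740 to 57986121 counts on genes. Mouse av08 lay apart from the other Cse-/- livers of the no-Cys group, with a median deviation from the group of 0.62 in log2 CPM over the P450 genes against 0.25 to 0.31 in the other 3 livers; over all genes it was 0.22 against 0.17. Its Cth level was 13.3 CPM. In the comparisons that include its group, the counts of calls in the lower or negative direction are given with and without it. Values without it are given for some members only. In bulk liver, fewer cells of a type and less RNA per cell cannot be told apart.

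P450 enzymes are haem proteins of the endoplasmic reticulum that insert an oxygen atom into a substrate, with electrons passed on by P450 oxidoreductase (Por) and cytochrome b5. Families 1 to 3 clear most drugs and toxins, and also act on steroids, bile acids, vitamin D and polyunsaturated fatty acids. Hepatocytes near the central vein hold most of them. Many are controlled at transcription by receptors that sense foreign compounds: the aryl hydrocarbon receptor (AHR) for family 1, and the constitutive androstane receptor (CAR) and pregnane X receptor (PXR) for Cyp2b, Cyp2c and Cyp3a genes. Cyp2a5 is also a target of NRF2, the factor of the oxidative stress response. In mice several, such as Cyp2d9, Cyp2a4 and Cyp2b9, depend on the male or female pattern of growth hormone.

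Most members lie in tandem clusters of similar genes (GRCm38 coordinates). The 4 Cyp2a members lie within chr7:26307169-27037375, 12 of the 13 Cyp2c members within chr19:39007019-40187333 and the 7 Cyp2d members within chr15:82370527-82794294. Cyp2c23 (chr19:44005022-44029208) and Cyp3a13 (chr5:137892932-137921619) stand apart from the rest of their subfamilies. Reads from such neighbours can be shared, and this was measured as the percentage of a gene's 61-base transcript words found in another gene as well. It was 53.2% for Cyp2c40, 49.0% for Cyp2c69, 45.3% for Cyp2c67, 35.9% for Cyp2c68, 30.2% for Cyp2a4, 29.4% for Cyp2a5, 29.2% for Cyp2d11 and 29.1% for Cyp2d10. For Cyp3a59 and Cyp3a25 it was 20.4% and 18.7%. Cyp2c23, Cyp2c70, Cyp2j5, Cyp2j6, Cyp2j9, Cyp2r1, Cyp3a13 and Cyp1b1 shared none.

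The start regions are shown for 5 members that were higher in Cse-/- mice fed the no-Cys diet, 2 pairs of neighbours of similar sequence and Cyp1a2, so that the letters before their starts can be compared. Each is the 250 bases before the start site in RefSeq (GRCm38.p6), read 5′ to 3′ in the direction of the gene: Cyp2a5 at chr7:26835089-26835338 on the plus strand, Cyp2a4 at chr7:26306942-26307191 on the plus strand, Cyp1a2 at chr9:57683656-57683905 on the minus strand, Cyp3a25 at chr5:146009619-146009868 on the minus strand and Cyp3a59 at chr5:146079008-146079257 on the plus strand. Capitals mark TATAAA, the TATA box letters, and AGGTCA, the short element bound by many nuclear receptors, on either strand (TGACCT where it lies on the other strand).
Cyp2a5: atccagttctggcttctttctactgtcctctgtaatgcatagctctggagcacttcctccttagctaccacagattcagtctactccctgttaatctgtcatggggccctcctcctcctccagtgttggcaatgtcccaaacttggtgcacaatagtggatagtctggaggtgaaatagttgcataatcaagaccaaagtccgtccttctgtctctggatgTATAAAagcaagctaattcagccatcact
Cyp2a4: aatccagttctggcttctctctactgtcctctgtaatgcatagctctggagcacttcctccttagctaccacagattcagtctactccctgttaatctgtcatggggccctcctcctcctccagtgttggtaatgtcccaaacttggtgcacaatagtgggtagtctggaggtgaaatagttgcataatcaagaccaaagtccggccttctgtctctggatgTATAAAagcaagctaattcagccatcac
Cyp1a2: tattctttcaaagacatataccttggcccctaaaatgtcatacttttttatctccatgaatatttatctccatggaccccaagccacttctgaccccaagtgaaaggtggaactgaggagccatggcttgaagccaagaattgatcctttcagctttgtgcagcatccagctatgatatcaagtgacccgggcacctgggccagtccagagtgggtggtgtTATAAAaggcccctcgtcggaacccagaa
Cyp3a25: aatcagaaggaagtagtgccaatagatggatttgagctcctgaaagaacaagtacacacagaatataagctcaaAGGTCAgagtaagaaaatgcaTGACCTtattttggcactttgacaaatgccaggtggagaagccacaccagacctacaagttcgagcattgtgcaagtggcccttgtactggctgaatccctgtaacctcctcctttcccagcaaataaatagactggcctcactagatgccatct
Cyp3a59: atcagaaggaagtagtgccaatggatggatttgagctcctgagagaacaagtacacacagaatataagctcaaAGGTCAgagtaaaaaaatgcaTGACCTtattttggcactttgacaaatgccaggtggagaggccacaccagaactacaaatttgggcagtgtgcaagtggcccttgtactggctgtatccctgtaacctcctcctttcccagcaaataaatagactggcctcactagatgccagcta

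The Cyp2a5 and Cyp2a4 windows, shifted by 1 base, were identical at 245 of 249 bases, and those of Cyp3a25 and Cyp3a59 at 238 of 249. Over all 595 pairs of members with a promoter the median identity was 30.0%, and 3 pairs were above 80%, the third being Cyp2c37 and Cyp2c50 (80.2%). RefSeq promoters were matched for 35 of the 41 members. TATAAA was found on either strand in 19 of the 35 (54.3%), against 13.0% of 27025 promoters of the same length, and began 28 or 29 bases before the start in Cyp2a4, Cyp2a5 and Cyp1a2. AGGTCA was found in 9 of 35 (25.7%), against 13.8%, and occurred in 2 copies in Cyp3a25 and Cyp3a59. The letters GCGTG, the core bound by AHR, were in 5 of 35 (14.3%; Cyp1a1, Cyp1b1, Cyp2b10, Cyp2c68 and Cyp2j9), against 28.2%. TGACNNNGC, the core bound by NRF2, was in none of the 35, against 10.1%. A match of letters is a description of the window and not a binding site, and both strands were searched.

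Together the members took 2.26% to 3.12% of the counts of a liver. Per kb of exon, Cyp2e1, which oxidizes ethanol and acetone, had the highest level by far, with 6039 ± 759 CPM per kb (SD over 20 livers). It was followed by Cyp2a5, the coumarin hydroxylase (1138 ± 801 CPM per kb), Cyp2d26 (613 ± 69.6 CPM per kb) and Cyp1a2, an oxidase of aromatic amines and caffeine (516 ± 185 CPM per kb). The second place of Cyp2a5 came from the Cse-/- groups: in the 3 Cse+/- groups its mean was 441 to 545 CPM per kb, below that of Cyp2d26 at 552 to 630 CPM per kb. The mean of Cyp1a2 was likewise below that of Cyp2d9 in the 3 Cse+/- groups, at 397 to 456 against 523 to 600 CPM per kb. In Cse-/- mice it was below on the no-Trp diet (395 against 532 CPM per kb). It was above on the no-Cys diet (758 against 327 CPM per kb) and with BSO (548 against 428 CPM per kb). The ranges of Cyp2a5, Cyp2d26 and Cyp1a2 overlapped with one another and with the next members, Cyp2d9 and Cyp3a25. Among single-member subfamilies, Cyp2f2, which activates naphthalene, had 367 ± 76.9 CPM per kb. Cyp2u1, a fatty acid hydroxylase, had 4.19 ± 2.08, Cyp2r1, the vitamin D 25-hydroxylase, 3.95 ± 1.16 and Cyp2g1, best known from olfactory tissue, 1.27 ± 0.647 CPM per kb. The highest of the remaining subfamilies were Cyp2c29 (338 ± 109.8 CPM per kb), Cyp2j5 (201 ± 18.7) and Cyp2b9 (32.1 ± 49.4), whose SD was above its mean. The lowest were Cyp2c55, Cyp2d34 and Cyp1b1 (0.140 ± 0.0407 CPM per kb).

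**Figure D1:**
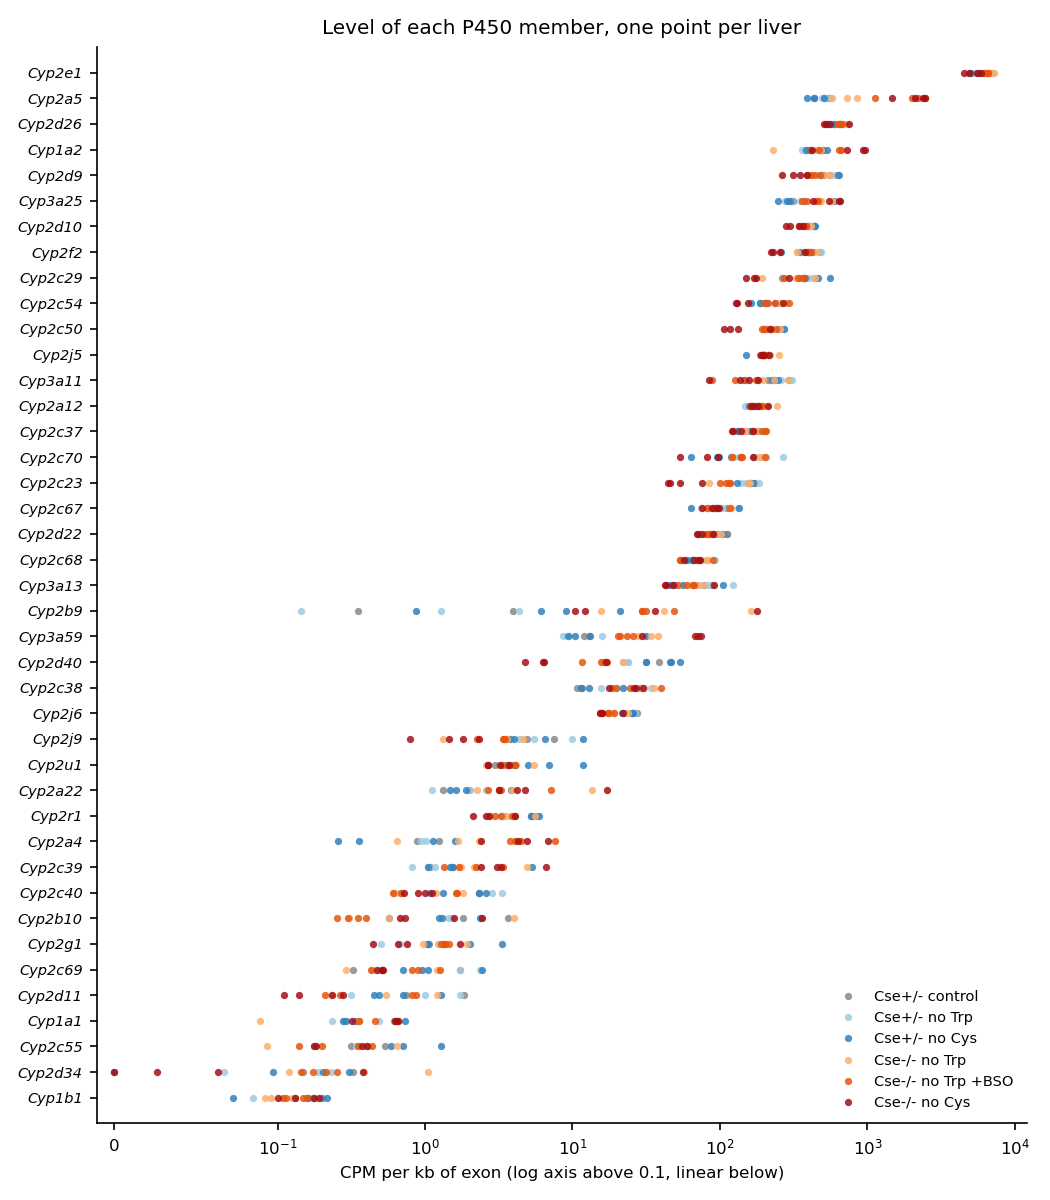
Level of the 41 P450 members in CPM per kb of exon (log axis above 0.1, linear below), with one point per liver coloured by group and members ordered by their mean. Cyp2e1 lies above all others in every liver, and Cyp2b9 covers the widest range of the members above 0 in all 20 livers.

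The first comparison was between the genotypes, with and without a working Cse allele, when both lacked dietary cysteine. Compared with Cse+/- mice given the same food, Cse-/- mice deprived of cysteine had changes in both directions: the 3 Cyp2a genes Cyp2a5, Cyp2a4 and Cyp2a22, Cyp1a2 and the pair Cyp3a25 and Cyp3a59 rose, and members of the Cyp2c, Cyp2d, Cyp2j, Cyp2g, Cyp2r and Cyp2u subfamilies fell. Of the 41 members, 6 (14.6%) were called higher, beside 11.6% of all 14759 genes tested, and 14 (34.1%) were called lower, beside 12.2% of all genes. The median log2 fold change of the members was -0.17, and that of all genes was -0.01. In 2 members every Cse-/- liver lay above every Cse+/- liver and in 9 every one lay below; of all genes, 23.2% did not overlap in either direction. Calls are at an adjusted p under 0.05 in edgeR's quasi-likelihood test.

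**Figure D2:**
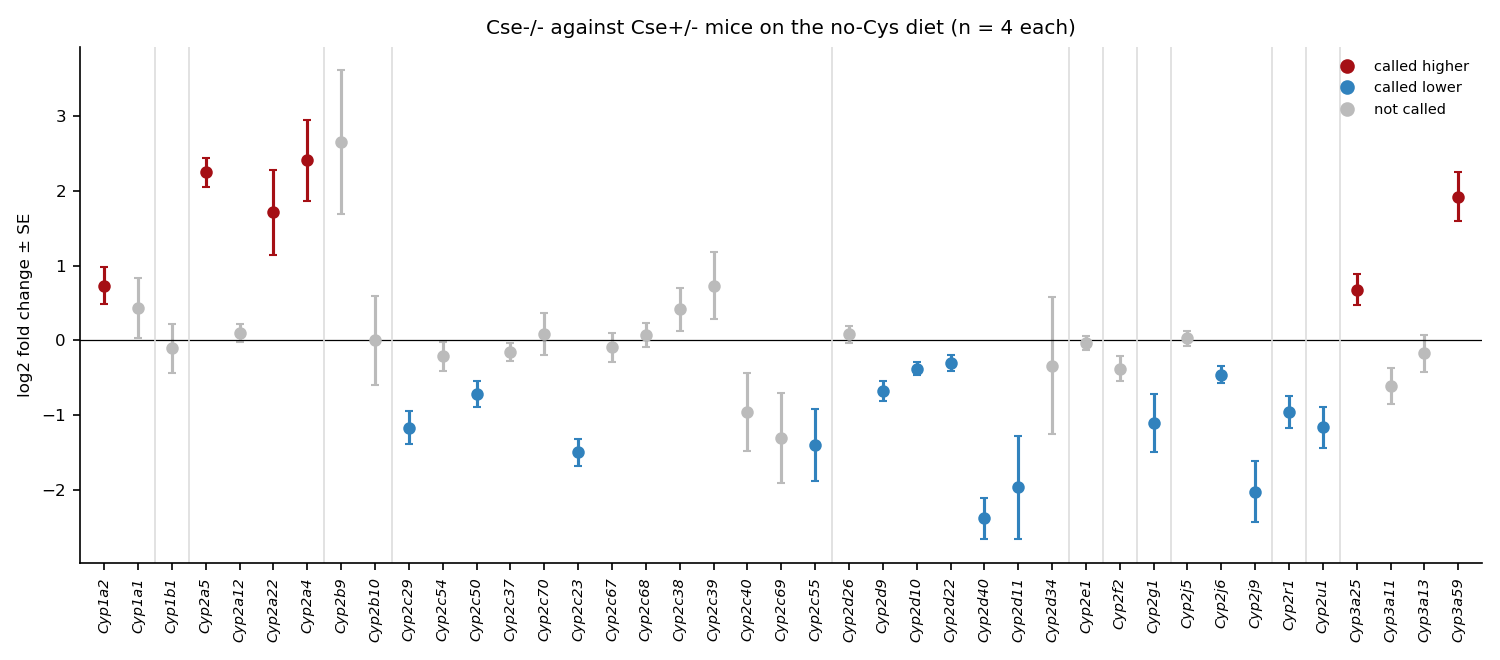
Log2 fold change (± SE) of the 41 P450 members by genotype under cysteine deprivation (Cse-/- over Cse+/-, 4 livers each), ordered by subfamily (grey lines) and by level within it. Red points were called higher (6), blue lower (14) and grey not called (21); the Cyp2a and Cyp3a subfamilies hold 5 of the 6 higher calls, and all 9 calls in Cyp2c and Cyp2d are lower.

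Cyp2a5, which hydroxylates coumarin and nicotine and oxidizes bilirubin, had the lowest adjusted p of the members that rose. It was at 906, 806, 898 and 1049.8 CPM in the 4 Cse+/- livers on the no-Cys diet and at 3031, 4912, 5054 and 4372 CPM in the 4 Cse-/- livers. Every Cse-/- liver was above every Cse+/- liver, and the lowest Cse-/- value was well over double the highest Cse+/- value. The log2 fold change was 2.25 ± 0.20 (SE, edgeR adjusted p = 4.55e-07). Its neighbour Cyp2a4, a testosterone 15α-hydroxylase that is higher in females, was at 0.450, 1.97, 0.622 and 2.76 CPM in Cse+/- and at 4.19, 7.40, 8.56 and 11.9 CPM in Cse-/- livers. These groups did not overlap either, at levels far below those of Cyp2a5, and the log2 fold change was 2.41 ± 0.54 (SE, edgeR adjusted p = 0.00313). Cyp2a4 was at 0.157% ± 0.113 (SD, n = 4) of the Cyp2a5 CPM in the Cse+/- and at 0.182% ± 0.0608 (SD, n = 4) in the Cse-/- livers. The share of Cyp2a4 counts that came from Cyp2a5 transcripts was not tested.

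The other 2 Cyp2a members differed from this pair. Cyp2a22 was at 5.58, 5.08, 6.53 and 13.2 CPM in Cse+/- and 10.9, 14.5, 16.4 and 59.1 CPM in Cse-/- livers. A single liver, mouse av08, stood far above the others, and the groups overlapped. Its log2 fold change was 1.71 ± 0.57 (SE, edgeR adjusted p = 0.0345) with this mouse and 0.87 ± 0.50 (SE, edgeR adjusted p = 0.223) without it. The call was also lost when av01, av02 or av03 was left out, with adjusted p up to 0.0940. Cyp2a12, a testosterone 7α-hydroxylase, was at 582 ± 29.7 CPM (SD, n = 4) and 623 ± 74.5 CPM (SD, n = 4), with a log2 fold change of 0.10 (adjusted p = 0.597).

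Of the AHR-regulated members, Cyp1a2 was called higher and the other 2 were not called. Cyp1a2 was at 820.1, 772, 1003 and 1078 CPM in Cse+/- and 1461, 1935, 1869 and 841 CPM in Cse-/- livers. Of the Cse-/- livers 3 were above all Cse+/- livers, and the fourth, av08, lay within their range. The log2 fold change was 0.73 ± 0.24 (SE, edgeR adjusted p = 0.0340), and 0.93 ± 0.22 (SE, edgeR adjusted p = 0.00394) without av08; the call was lost when av01, av02, av05, av06 or av07 was left out, with adjusted p up to 0.111. Cyp1a1, the most inducible gene of the family, was near 1 CPM in both groups (0.775 to 2.05 CPM and 0.885 to 1.83 CPM), with a log2 fold change of 0.43 ± 0.40 (SE, edgeR adjusted p = 0.463). Cyp1b1, a steroid and hydrocarbon oxidase found mainly outside hepatocytes, was at 0.424 to 1.27 CPM and 0.590 to 1.12 CPM, and its log2 fold change was -0.10 ± 0.33 (SE, edgeR adjusted p = 0.854).

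In the Cyp3a subfamily, which acts on many drugs and on steroids, the head-to-head neighbours Cyp3a25 and Cyp3a59 rose. Cyp3a59 was at 63.4, 26.4, 18.6 and 20.8 CPM in Cse+/- and 136, 142, 149.9 and 59.2 CPM in Cse-/- livers. The Cse-/- values fell into 3 high livers and av08, which was just below the highest Cse+/- liver, av01. The log2 fold change was 1.92 ± 0.32 (SE, edgeR adjusted p = 0.000344). Cyp3a25 was at 1229, 619.8, 518 and 590.4 CPM and 1141, 1365, 1340.4 and 886 CPM, with the same Cse+/- liver as the highest of its group, and its log2 fold change was 0.68 ± 0.21 (SE, edgeR adjusted p = 0.0218). Cyp3a59 was at 3.52% to 5.16% of the Cyp3a25 CPM in the Cse+/- livers and at 6.69% to 11.9% in the Cse-/- livers. The Cyp3a25 call was lost when av02, av03, av04, av06 or av07 was left out, with adjusted p up to 0.0723, and with only the groups compared (adjusted p = 0.0798). Cyp3a11, the main target of PXR, had a log2 fold change of -0.60 ± 0.24 (SE, edgeR adjusted p = 0.0718), with 739 to 1254 CPM in Cse+/- and 429 to 916 CPM in Cse-/- livers, and passed the threshold without av08 (-0.75, adjusted p = 0.0373), without av02, in DESeq2 and with no filter (adjusted p from 0.0233 to 0.0455). Cyp3a13 had a log2 fold change of -0.17 ± 0.25 (SE, edgeR adjusted p = 0.656).

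Neither member of Cyp2b was called by edgeR in this comparison, and DESeq2 called Cyp2b9 higher (adjusted p = 0.0460). Cyp2b9, a female-predominant steroid hydroxylase, was at 1.62, 16.8, 11.5 and 39.4 CPM in Cse+/- and 67.9, 22.7, 19.5 and 332 CPM in Cse-/- livers. It varied more than 10-fold within each group, with av01 far below its group and av08 far above. The log2 fold change was 2.65 ± 0.96 (SE, edgeR adjusted p = 0.0501), just short of the threshold, and 1.07 (adjusted p = 0.382) without av08. In edgeR it passed the threshold with no filter, with a filter at a mean of 1 CPM, with thinned counts and without av04, av06 or av07 (adjusted p from 0.00280 to 0.0492). Cyp2b10, the index gene of CAR, was at 1.20 to 4.95 CPM and 1.43 to 5.16 CPM, with a log2 fold change of 0.00 ± 0.59 (SE, edgeR adjusted p = 0.999).

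Of the 7 Cyp2d members, relatives of the human debrisoquine hydroxylase, 5 fell and none rose. Cyp2d40 was at 56.6, 83.6, 82.5 and 96.7 CPM in Cse+/- and 11.4, 11.5, 8.62 and 30.2 CPM in Cse-/- livers. All Cse-/- livers were below all Cse+/- livers, and av08 was the highest of its group. The log2 fold change was -2.38 ± 0.28 (SE, edgeR adjusted p = 8.95e-06). Cyp2d9, the testosterone 16α-hydroxylase of male liver, was at 1330.4, 1665, 1281 and 1283 CPM and 1028, 833, 695 and 925 CPM. These groups did not overlap, and the log2 fold change was -0.68 ± 0.13 (SE, edgeR adjusted p = 0.000866). Cyp2d10 and Cyp2d22 fell less, with log2 fold changes of -0.38 ± 0.09 (SE, edgeR adjusted p = 0.00365) and -0.30 ± 0.11 (SE, edgeR adjusted p = 0.0430). The Cyp2d22 call was lost with no filter, with only the groups compared, and without any one of av01, av02, av04, av05, av06 and av07, with adjusted p up to 0.140. Cyp2d11 had a log2 fold change of -1.96 ± 0.69 (SE, edgeR adjusted p = 0.0454) at only 0.720 to 2.04 CPM and 0.177 to 0.440 CPM, and its call was lost without av08 (-1.86, adjusted p = 0.0846), as without av02, av04, av05, av06 or av07, with adjusted p up to 0.166, and with thinned counts. Cyp2d26, the highest of the subfamily, had a log2 fold change of 0.08 ± 0.11 (SE, edgeR adjusted p = 0.628), and Cyp2d34 of -0.34 (adjusted p = 0.827).

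Of the 13 Cyp2c members, which epoxidize or hydroxylate arachidonic acid, retinoids and drugs, 4 fell and none rose. Cyp2c23, an arachidonic acid epoxygenase, was at 281, 349.8, 341 and 360.3 CPM in Cse+/- and 95.1, 99.3, 116 and 163 CPM in Cse-/- livers. The groups were well apart, and the log2 fold change was -1.49 ± 0.18 (SE, edgeR adjusted p = 1.38e-05). Cyp2c29, a CAR target and the highest of the subfamily, was at 1412, 1128, 1147 and 1715 CPM and 517, 458, 534 and 900.2 CPM. These groups did not overlap either, with av08 again the highest Cse-/- liver, and the log2 fold change was -1.17 ± 0.22 (SE, edgeR adjusted p = 0.000980). Cyp2c50, a linoleic acid epoxygenase, had a log2 fold change of -0.72 ± 0.17 (SE, edgeR adjusted p = 0.00507), with av08 (634 CPM) inside the Cse+/- range of 577 to 795 CPM. Cyp2c55, a further CAR and PXR target, had a log2 fold change of -1.40 ± 0.48 (SE, edgeR adjusted p = 0.0417) at 0.810 to 2.55 CPM and 0.354 to 0.811 CPM, and its call was lost when av02, av04, av05, av06 or av07 was left out, with adjusted p up to 0.171. The 9 members not called had log2 fold changes between -1.31 (Cyp2c69) and 0.73 (Cyp2c39), and among them Cyp2c70, which makes the muricholic acids of mouse bile, had 0.09 (adjusted p = 0.860).

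In the smaller subfamilies, 5 members fell: Cyp2j9, Cyp2j6, Cyp2r1, Cyp2u1 and Cyp2g1. In Cyp2j, whose members epoxidize arachidonic acid, Cyp2j9 was at 39.3, 13.3, 12.6 and 21.8 CPM in Cse+/- and 2.65, 6.08, 7.75 and 4.87 CPM in Cse-/- livers. All Cse-/- livers were below all Cse+/- livers, and the log2 fold change was -2.02 ± 0.41 (SE, edgeR adjusted p = 0.00149). Cyp2j6 fell by 0.46 ± 0.12 on the log2 scale (SE, edgeR adjusted p = 0.00829), and Cyp2j5 had a log2 fold change of 0.03 ± 0.10 (SE, edgeR adjusted p = 0.872). Cyp2r1 was at 12.5, 11.1, 11.5 and 11.9 CPM in Cse+/- and 5.78, 5.49, 4.46 and 8.55 CPM in Cse-/- livers. The groups did not overlap, and the log2 fold change was -0.96 ± 0.21 (SE, edgeR adjusted p = 0.00259). Cyp2u1 had a log2 fold change of -1.16 ± 0.27 (SE, edgeR adjusted p = 0.00457), with 19.1 to 62.0 CPM and 14.0 to 19.5 CPM. Cyp2g1, at 2.26 to 7.11 CPM and 0.952 to 3.69 CPM, had a log2 fold change of -1.10 ± 0.39 (SE, edgeR adjusted p = 0.0445), and its call was lost when av01, av03, av05, av06 or av07 was left out, with adjusted p up to 0.180, and with only the groups compared (adjusted p = 0.0941). Cyp2e1 was at 11519 ± 888 CPM (SD, n = 4) and 11243 ± 1339 CPM (SD, n = 4), with a log2 fold change of -0.04 ± 0.10 (SE, edgeR adjusted p = 0.833). Cyp2f2 had a log2 fold change of -0.38 ± 0.17 (SE, edgeR adjusted p = 0.107), and of -0.58 (adjusted p = 0.00800) without av08.

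**Figure D3:**
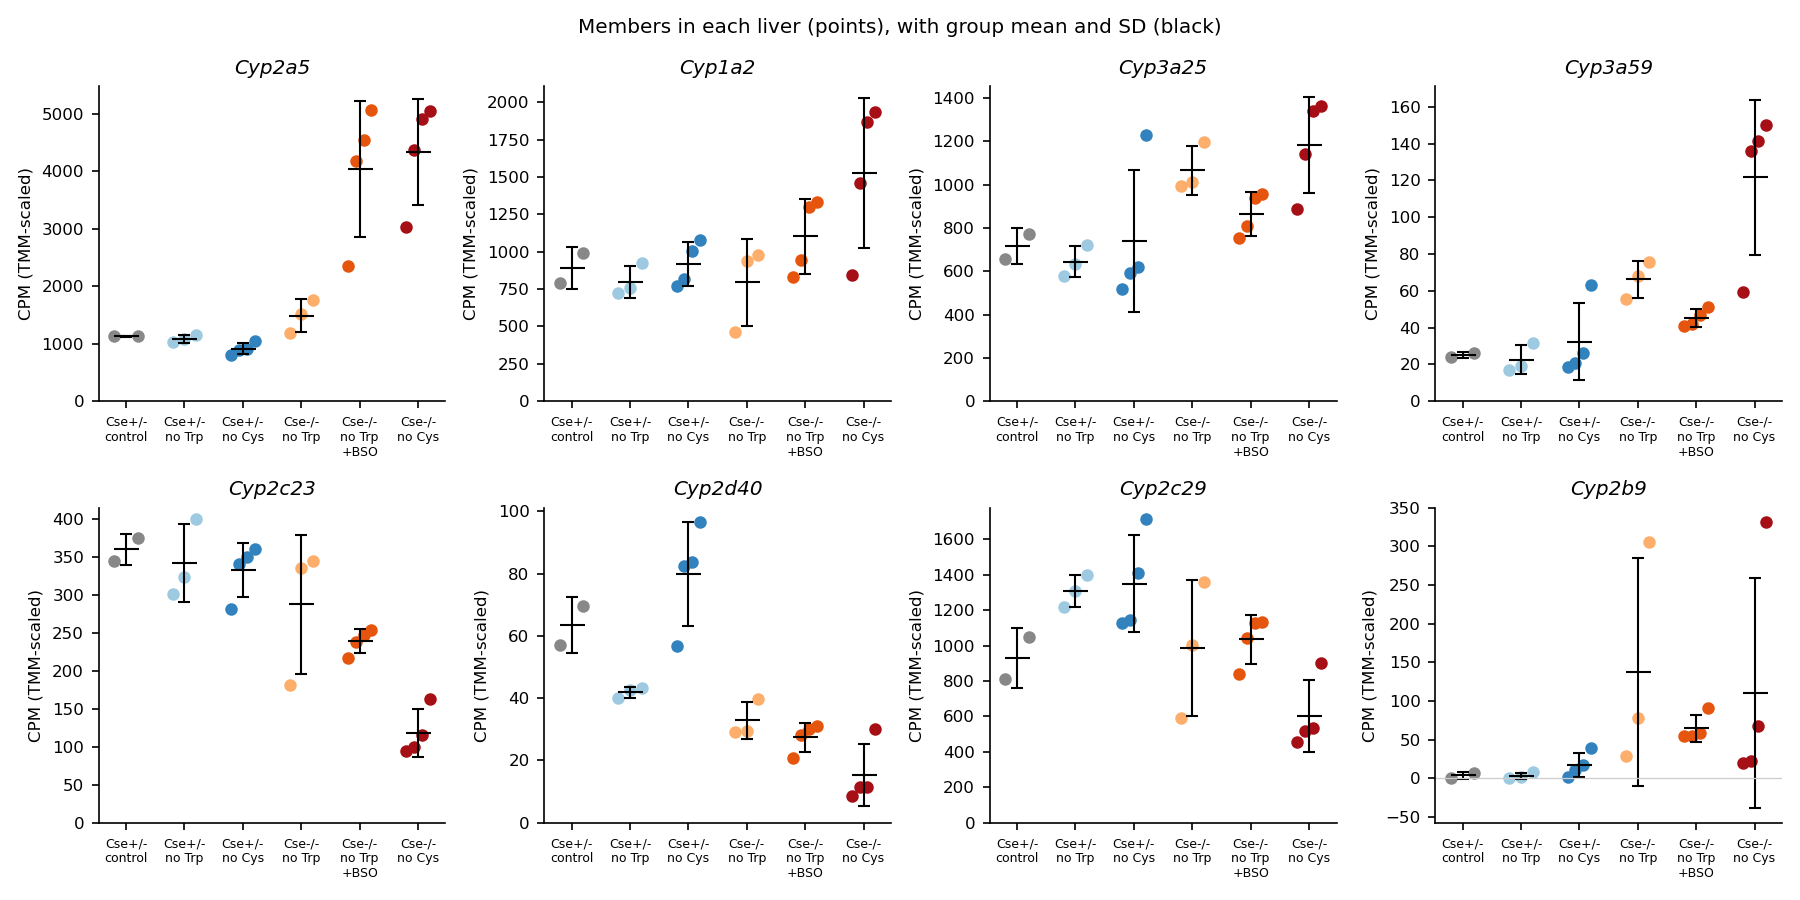
CPM (TMM-scaled) of 8 members in each liver (points), with the group mean and SD (black lines), for the 6 groups. Cyp2a5 is high in the no-Trp group with BSO and the no-Cys group of Cse-/- mice, whereas Cyp2c23 and Cyp2d40 have their lowest means in that no-Cys group. The SD bars of Cyp2b9 reach below 0 where the SD of a group is above its mean.

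Without av08, 5 members were called higher and 16 lower, beside 11.4% and 12.4% of all genes at that setting. Without av02 the counts were 3 and 12, and 10 were called lower without av05, av06 or av07. The shares of all genes called without these livers were not computed. A drop in the members thus cannot be told apart from a general drop in calls. Other markers moved with this comparison. The sum of 8 hepatocyte genes, of which 4 fell (Alb, Ttr, Apoa1 and Serpina1c), was 44330 to 74030 CPM in the Cse-/- and 90663 to 116695 CPM in the Cse+/- livers. The sum of 5 blood genes, all of which fell, was 69.0 to 114 against 201 to 405 CPM, and that of 5 cholangiocyte genes, of which Sox9 and Spp1 fell, was 16.4 to 28.6 against 45.9 to 57.8 CPM. Of 11 pericentral genes that are not P450 genes, 1 rose (Oat) and 3 fell (Rgn, Gulo and Lgr5), and their sum was 3378 to 3490 against 3722 to 4730 CPM. Of 6 stellate cell genes 2 were called lower, of 5 endothelial genes Lyve1 was called higher, and of 6 Kupffer cell genes none was called. The part of cell type shares in the P450 values was not tested.

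Genes that act on or with P450 enzymes were read beside the members. Of 25 receptors and transcription factors tested, 2 were called higher, Rxrb (0.26, adjusted p = 0.0266) and Keap1 (0.22, adjusted p = 0.0350), and 3 lower, Cebpb (-0.68, adjusted p = 0.0271), Foxa3 (-0.59, adjusted p = 0.0429) and Nfe2l2, which encodes NRF2 (-0.41, adjusted p = 0.0157); values are log2 fold changes. Ahr (-0.26, adjusted p = 0.323), Nr1i3, which encodes CAR (0.21, adjusted p = 0.558), and Nr1i2, which encodes PXR (0.20, adjusted p = 0.355), were not called. Of 6 electron donors and their partners, Por (0.68, adjusted p = 0.00660) and Pgrmc1 (0.36, adjusted p = 0.00298) were called higher and Cyb5r3 (-1.08, adjusted p = 9.07e-06), Cyb5b (-0.64, adjusted p = 0.00315) and Pgrmc2 (-0.33, adjusted p = 0.00523) lower. The mean of Por was 1300.0 CPM in these Cse-/- livers and 1130 to 1595 CPM in 4 other groups, and the low group was the Cse+/- no-Cys group at 812 CPM, where it was called lower than on the control diet (-0.97, adjusted p = 0.0138). Alas1, the rate-limiting enzyme of haem synthesis in liver, was not called (-0.09, adjusted p = 0.723). Of 4 genes of haem breakdown, Hmox1 (0.65, adjusted p = 0.0109), Hmox2 and Blvrb were called higher. Of 7 reference targets of NRF2, 5 were called higher and none lower, from Txnrd1 (0.46, adjusted p = 0.00261) to Gsta1 (3.11, adjusted p = 6.02e-05), with Nqo1 at 2.29 (adjusted p = 4.49e-06). Of 13 other oxidizing enzymes, 4 were called higher, among them Ephx1, the microsomal epoxide hydrolase (1.29, adjusted p = 5.58e-05), and Aox1 (1.22, adjusted p = 7.57e-05), and 3 lower, among them Adh1, an alcohol dehydrogenase (-0.76, adjusted p = 0.00126). Of 17 glucuronosyltransferases, whose Ugt1a genes share exons, 3 were called higher and 5 lower.

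Of 4 female-biased P450 genes tested, Cyp2a4 was called higher, and the log2 fold changes of the rest were 2.65 (adjusted p = 0.0501) for Cyp2b9, -0.96 (adjusted p = 0.193) for Cyp2c40 and -1.31 (adjusted p = 0.122) for Cyp2c69. Of 4 male-biased genes, Cyp2d9 was called lower, and Cyp4a12a, Cyp4a12b and Cyp7b1 were not called.

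P450 genes outside families 1 to 3 gave 2 higher and 5 lower calls of 25. Cyp39a1, an oxysterol 7α-hydroxylase (1.88, adjusted p = 1.73e-05), and Cyp20a1 (0.59, adjusted p = 0.00191) were higher. Cyp21a1, the steroid 21-hydroxylase (-4.61, adjusted p = 0.0120), Cyp51 of cholesterol synthesis (-1.60, adjusted p = 0.000791), Cyp7a1, the rate-limiting enzyme of bile acid synthesis (-1.43, adjusted p = 0.0466), Cyp4f14 and Cyp4v3 were lower.

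**Figure D4:**
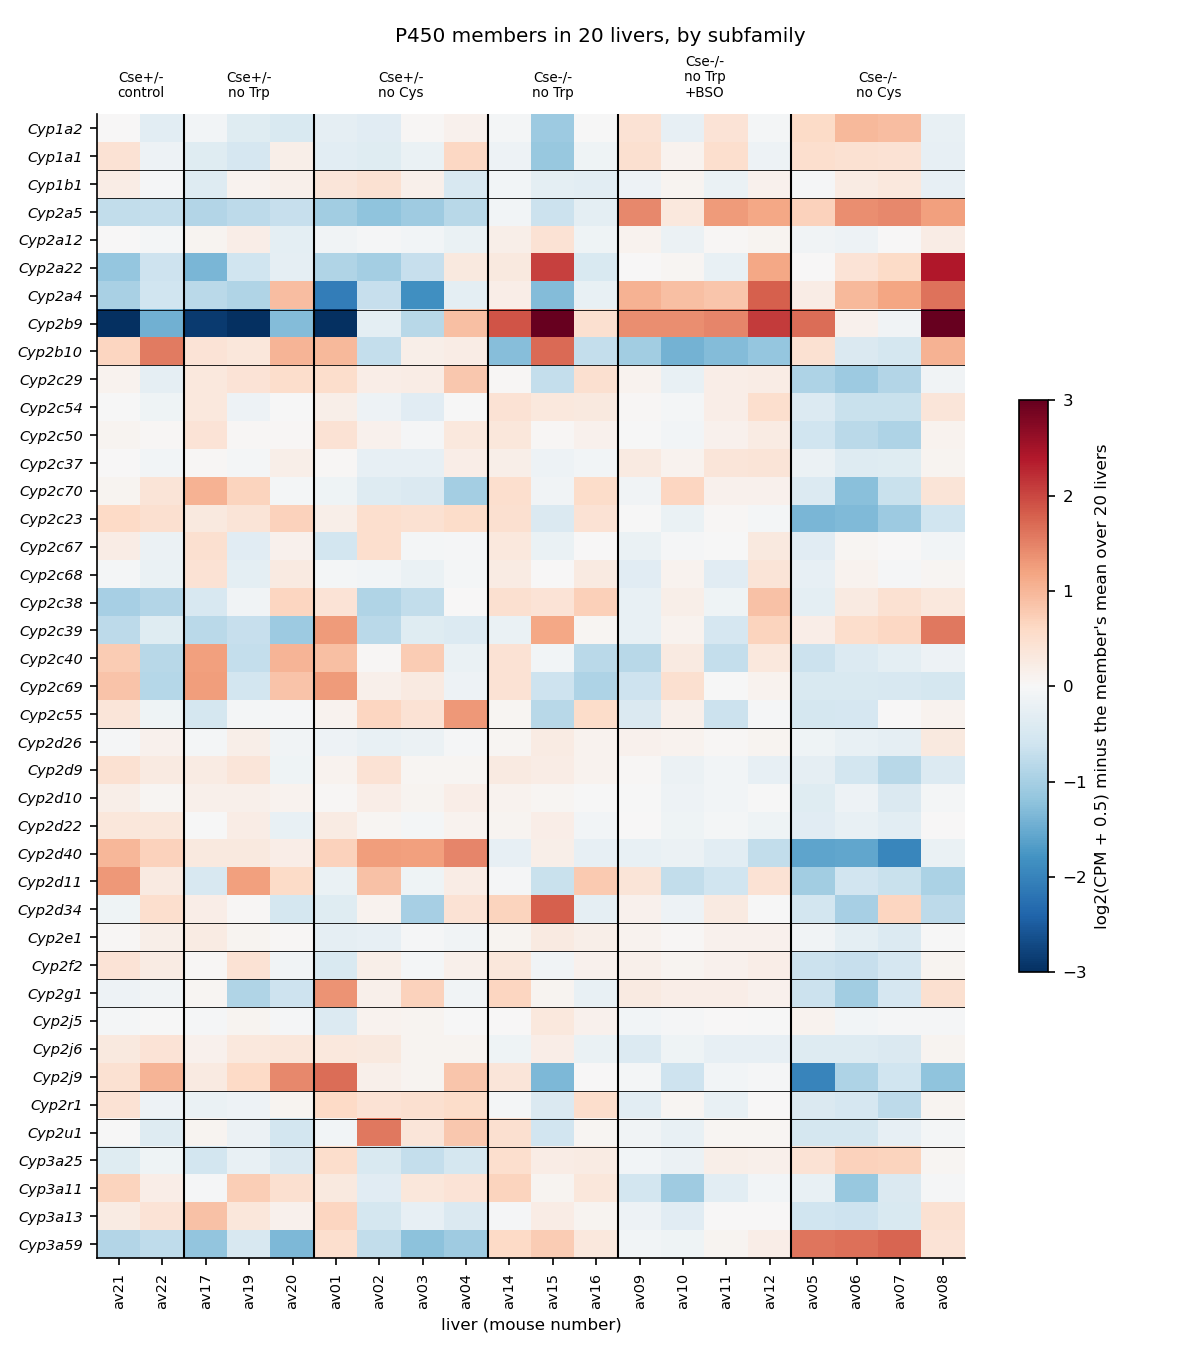
Level of the 41 members in each of the 20 livers, as log2(CPM + 0.5) minus the mean of that member over all livers (colour), with members by subfamily (rows) and livers by group (columns, mouse numbers). The columns of av08 and av15 stand out from their groups in Cyp2b9 and Cyp2a22. The lowest values of Cyp2c23 and Cyp2d40 fall in the Cse-/- no-Cys columns, except that av08 is not among the lowest in Cyp2d40. It is at 30.2 CPM there, above av12 of the no-Trp group with BSO at 20.8 CPM.

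The next question was whether loss of another amino acid from the diet of the same genotype gave the same values. In Cse-/- mice, the no-Cys diet against the no-Trp diet gave 2 members called higher (4.88%), beside 5.05% of all genes, and 6 called lower (14.6%), beside 5.35%. The median log2 fold change of the members was -0.33, against -0.01 over all genes. Cyp2a5 was at 1768, 1189.9 and 1516 CPM on the no-Trp diet, below all livers on the no-Cys diet, and its log2 fold change was 1.54 ± 0.21 (SE, edgeR adjusted p = 0.000267). Cyp1a2 was at 939.8, 462 and 981 CPM on the no-Trp diet, with av15 as the low value, and its log2 fold change was 0.94 ± 0.27 (SE, edgeR adjusted p = 0.0301); without av15 it was 0.66 (adjusted p = 0.108), and the call was also lost without av05, av06, av07 or av14. Among the lower members, Cyp2c23 was at 345, 182 and 336 CPM on the no-Trp diet, again with av15 as the lowest, but above all livers on the no-Cys diet. Its log2 fold change was -1.28 ± 0.19 (SE, edgeR adjusted p = 0.000437). Cyp2d40 was at 29.2, 39.8 and 29.6 CPM, with a log2 fold change of -1.09 ± 0.29 (SE, edgeR adjusted p = 0.0212). The no-Cys liver av08, at 30.2 CPM, lay inside this range. Cyp2d9 and Cyp2c50 had log2 fold changes of -0.70 ± 0.14 (SE, edgeR adjusted p = 0.00386) and -0.67 ± 0.18 (SE, edgeR adjusted p = 0.0259), and Cyp2e1 (-0.38, adjusted p = 0.0276) and Cyp2d10 (-0.30, adjusted p = 0.0439) were also called lower. The call of Cyp2d40 was lost without av05, av06, av07 or av15 and that of Cyp2c50 without av05, av06, av07, av14 or av16, with adjusted p up to 0.0700 and 0.115. The call of Cyp2e1 was lost without av06, av07, av15 or av16 and that of Cyp2d10 without any liver of the 7 but av08, with adjusted p up to 0.0921 and 0.150. Without av08, 15 members were called lower in place of 6, while the share of all genes called lower went to 6.77%, and with only these 2 groups in the fit 2 members were. Of the marker lists, 3 of 8 hepatocyte genes (Ttr, Apoa1 and Serpina1c), 3 of 5 blood genes, Spp1 of the cholangiocyte genes and 2 of 11 pericentral genes (Rgn and Tbx3) were called lower too. The hepatocyte sum was 70409 to 75185 CPM in the no-Trp group, and the part of these genes in the P450 values was not tested.

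The 2 no-Trp groups were compared to ask how the members differed by genotype when cysteine was in the diet. Of the 41 members 2 (4.88%) were called higher in Cse-/- mice under tryptophan deprivation, beside 1.40% of all genes. None was called lower in edgeR, beside 1.24% of all genes, with 2 at an unadjusted p under 0.05 and 0 in DESeq2. The median log2 fold change was 0.01. Cyp2b9 was at 2.41, 0.272 and 8.12 CPM in Cse+/- and 78.0, 305 and 29.2 CPM in Cse-/- livers. All Cse-/- livers were above all Cse+/- livers, but av15 was the highest by far. The log2 fold change was 5.34 ± 1.28 (SE, edgeR adjusted p = 0.0329), 3.98 (adjusted p = 0.137) without av15 and 7.17 without av20. Cyp3a59 was at 19.1, 31.6 and 17.2 CPM and 67.9, 75.5 and 55.4 CPM, also without overlap, and its log2 fold change was 1.54 ± 0.37 (SE, edgeR adjusted p = 0.0329), and 1.43 (adjusted p = 0.111) without av15. Without av15 no member was called. The share of all genes called without av15 alone was not computed, and without both av08 and av15 it was 0.613% for higher calls. The call of Cyp2b9 was also lost without av17 or av19 and that of Cyp3a59 without av14, av17 or av20, with adjusted p up to 0.137 and 0.133. Of 11 pericentral genes Gulo was called lower, and the sum of 3 kidney genes was up to 6.04 CPM in the Cse-/- and at most 0.0679 CPM in the Cse+/- livers. The part of these genes in the P450 values was not tested. Cyp2a5 was at 1023, 1087 and 1161 CPM in the Cse+/- livers, below all Cse-/- livers by a small margin, with a log2 fold change of 0.45 (adjusted p = 0.278).

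The difference between these genotype effects, the interaction of genotype with the no-Cys and no-Trp diets, was tested directly. It was positive for 1 member (2.44%), beside 1.67% of all genes, and negative for 4 (9.76%), beside 2.69%. Cyp2a5 had a difference in log2 fold change of 1.79 ± 0.29 (SE, edgeR adjusted p = 0.00221), that is, the genotype effect was larger on the no-Cys diet. Cyp2d40 (-2.02 ± 0.41, SE, edgeR adjusted p = 0.00790), Cyp2c23 (-1.25 ± 0.27, SE, edgeR adjusted p = 0.0134), Cyp2r1 (-1.12 ± 0.31, SE, edgeR adjusted p = 0.0468) and Cyp2d9 (-0.69 ± 0.20, SE, edgeR adjusted p = 0.0485) had negative differences. The calls of Cyp2r1 and Cyp2d9 were close to the threshold and were lost when 12 and 10 of the 14 livers, respectively, were left out singly, with adjusted p up to 0.144 and 0.112. Cyp3a59, with a difference of 0.39 (adjusted p = 0.715), and Cyp1a2, with 0.74 (adjusted p = 0.276), were not called. Cyp2a4 had the largest positive difference, 2.73 ± 0.78 (SE, edgeR adjusted p = 0.0522), which missed the threshold, and DESeq2 called it (2.82, adjusted p = 0.0301). Among negative differences, that of Cyp2b9 was further from 0 than that of Cyp2d40 and was not called (-2.69 ± 1.49, SE, edgeR adjusted p = 0.338). Cyp2g1 (-1.97) and Cyp2u1 (-1.42) were not called in edgeR either. Without av08, 9 members had negative differences, and over all genes the share with a negative difference also rose, to 4.57%. Of the marker genes, Alb and Ttr (hepatocyte), Alas2 (blood) and Rgn (pericentral) had negative differences, and Oat (pericentral) and Lyve1 (endothelial) positive ones.

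Next, Cse-/- mice that received BSO with the no-Trp diet were compared with those on the no-Trp diet alone. Of the 41 members 1 (2.44%) was called higher with BSO than without, beside 0.488% of all genes. None was called lower in edgeR, beside 0.305% of all genes, with 3 at an unadjusted p under 0.05 and 2 in DESeq2 (Cyp2b10 and Cyp3a11). Over all genes the split was 72 higher and 45 lower, and 70 and 67 with upper-quartile factors. The member called higher was Cyp2a5, at 5076, 2346, 4544 and 4185 CPM with BSO, all above the no-Trp livers, which were at 1189.9 to 1768 CPM. Its log2 fold change was 1.44 ± 0.21 (SE, edgeR adjusted p = 0.00216), and it stayed called without each of the 7 livers in turn, with adjusted p up to 0.0263. This comparison shares no library with that of the genotypes on the no-Cys diet, and Cyp2a5 was the 1 member called higher in both, 1 of 6 there and 1 of 1 here. Cyp2a4 was at 7.72, 7.03, 6.59 and 13.3 CPM with BSO and 4.05, 1.12 and 2.90 CPM without; the groups did not overlap, and the log2 fold change was 1.66 ± 0.52 (SE, edgeR adjusted p = 0.139). Cyp2b10 was at 0.837, 0.535, 0.631 and 0.736 CPM with BSO, the lowest levels of any group, but overlapped with the no-Trp livers at 0.647, 8.53 and 1.20 CPM, and its log2 fold change was -2.19 ± 0.68 (SE, edgeR adjusted p = 0.137). Cyp3a11 had -0.84 ± 0.25 (SE, edgeR adjusted p = 0.127) and Cyp1a2 0.47 ± 0.26 (SE, edgeR adjusted p = 0.466). Members that were lower by genotype under the no-Cys diet were not called here. Examples are log2 fold changes of -0.26 (adjusted p = 0.763) for Cyp2d40, -0.27 (adjusted p = 0.598) for Cyp2c23, -0.02 (adjusted p = 0.992) for Cyp2j9, 0.07 (adjusted p = 0.941) for Cyp2c29, -0.18 (adjusted p = 0.934) for Cyp2d11 and -0.50 (adjusted p = 0.736) for Cyp2c55. Cyp2d9 had -0.31, with an unadjusted edgeR p of 0.0344 and an adjusted p of 0.323. Of the 7 NRF2 reference targets 5 were called higher with BSO, among them Nqo1 (1.87, adjusted p = 0.00154), of the receptors and factors none of 25 was called, and Alas1 was called higher (0.94, adjusted p = 0.0181). Its mean was 426 CPM in the no-Trp group of Cse-/- mice, where it was lower than in Cse+/- mice fed the no-Trp diet (-1.57, adjusted p = 0.000204), and 817 CPM with BSO, below the 987 to 1635 CPM of the remaining groups.

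Between the 2 Cse-/- groups in which Cyp2a5 was high, the no-Cys diet against the no-Trp diet with BSO, 1 member (2.44%) was called higher, beside 1.33% of all genes, and 2 (4.88%) lower, beside 1.42%. Cyp2a5 had a log2 fold change of 0.10 ± 0.19 (SE, edgeR adjusted p = 0.795), with ranges that overlapped over most of their length. Cyp3a59 was at 41.9, 40.6, 46.6 and 51.2 CPM with BSO, below all 4 no-Cys livers, and was called higher on the no-Cys diet, by 1.43 ± 0.32 (SE, edgeR adjusted p = 0.0232). Cyp2c23 was at 247, 217, 254 and 238 CPM with BSO, above all no-Cys livers, and was lower by a log2 fold change of -1.02 ± 0.18 (SE, edgeR adjusted p = 0.00764). Cyp2c37 was called lower, by a log2 fold change of -0.48 ± 0.12 (SE, edgeR adjusted p = 0.0372). Cyp2d40 was at 30.1, 30.9, 28.1 and 20.8 CPM with BSO and had a log2 fold change of -0.84 (adjusted p = 0.0934), which was not past the threshold, and of -1.38 (adjusted p = 0.000179) without av08. The call of Cyp3a59 was lost without av05, av06, av07, av09 or av11 and that of Cyp2c37 without av05, av06, av07, av09, av11 or av12, with adjusted p up to 0.0771 and 0.140. Without av08, 9 members were called lower in place of 2, and over all genes the share called lower also rose, to 3.83%. Of the marker lists, 4 of 11 pericentral genes (Glul, Rgn, Axin2 and Tbx3), 3 of 8 hepatocyte genes and 2 of 5 cholangiocyte genes were called lower as well. The pericentral sum was 3378 to 3490 CPM in the no-Cys group and 4061 to 4214 CPM with BSO, and its part in the P450 values was not tested.

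In Cse+/- mice, which can make cysteine, neither diet gave a call among the members in edgeR as fitted or in DESeq2. For the no-Cys diet, 1 member was called higher in edgeR with no filter on low counts, and 1 without av01. For the no-Cys against the control diet, 0.989% of all genes were called higher and 1.19% lower, and the members at an unadjusted p under 0.05 were Cyp2u1 (log2 fold change 1.00, adjusted p = 0.133) and Cyp2e1 (-0.28, adjusted p = 0.245). For the no-Trp against the control diet, 0.00678% of all genes were called higher and 0.0407% lower, and the members at that level were Cyp2c38 (1.05, adjusted p = 0.388) and Cyp2d22 (-0.33, adjusted p = 0.454). The control group held only 2 livers. Cyp2a5 was at 1127 and 1132 CPM in these 2, with log2 fold changes of -0.30 (adjusted p = 0.543) on the no-Cys and -0.05 (adjusted p = 0.971) on the no-Trp diet. Cyp2c23 was at 375 and 346 CPM on the control diet, with -0.11 (adjusted p = 0.841) and -0.08 (adjusted p = 0.952). Cyp2d40 was at 69.8 and 57.0 CPM on the control diet, with 0.33 (adjusted p = 0.646) and -0.60 (adjusted p = 0.609). The sum of 3 kidney genes was 0.0594 CPM in 1 control liver and 20.9 CPM in the other. It was at most 0.900 CPM in the Cse+/- no-Cys and 0.0679 CPM in the Cse+/- no-Trp livers. Krt7, a cholangiocyte gene, was called lower on the no-Cys than on the control diet (-1.28, edgeR adjusted p = 0.0441). The part of these genes in the P450 values was not tested.

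**Figure D5:**
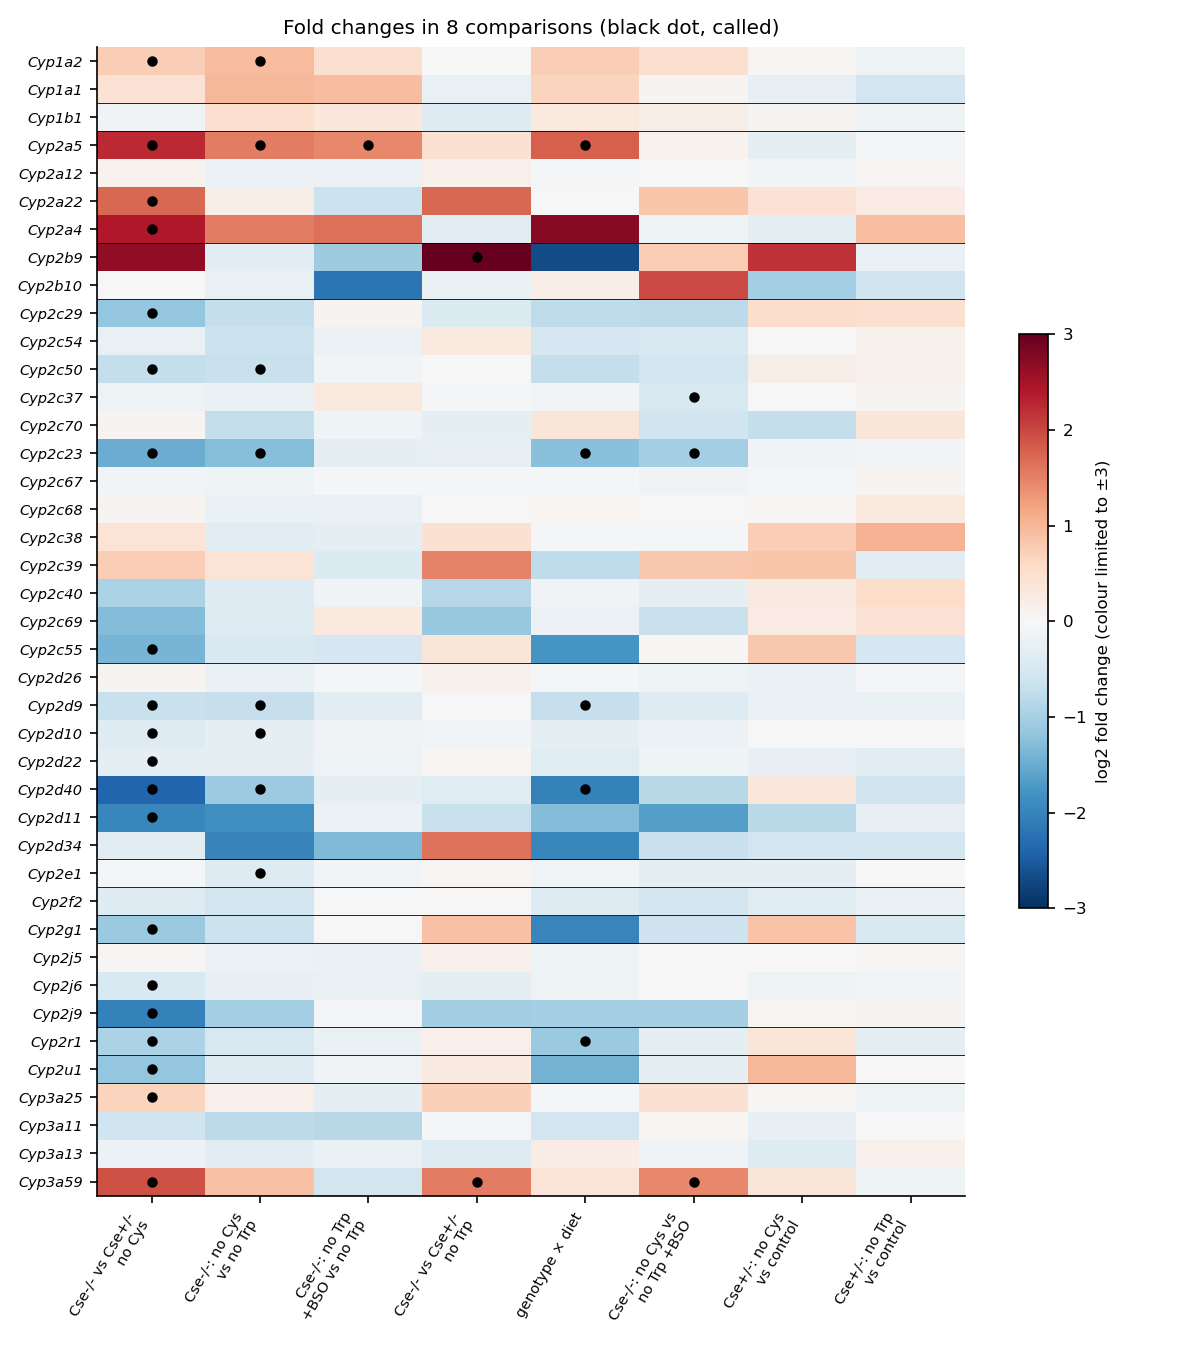
Log2 fold change (colour, limited to ±3) of the 41 members in 8 comparisons, with black dots where a member was called at an adjusted p under 0.05. Cyp2a5 has dots in 4 columns and Cyp2c23 in 4, and the 2 columns of Cse+/- mice against the control diet have none; several columns share libraries.

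Across the 6 groups the members thus took different orders. Cyp2a5 and Cyp2a4 had their highest means in the no-Cys group and the no-Trp group with BSO of Cse-/- mice (4342 ± 922 CPM (SD, n = 4) and 4038 ± 1186 CPM (SD, n = 4) for Cyp2a5). Cyp3a59 had its highest mean in the no-Cys group of Cse-/- mice (122 ± 42.0 CPM, SD, n = 4), then in their no-Trp group (66.3 ± 10.1 CPM, SD, n = 3) and with BSO (45.1 ± 4.82 CPM, SD, n = 4), and its Cse+/- means lay between 22.6 and 32.3 CPM. Cyp2c23 was at 118 ± 31.1 CPM (SD, n = 4) in the no-Cys group of Cse-/- mice and between 239 and 360.2 CPM on average elsewhere. Cyp2d40 had its highest mean in the Cse+/- no-Cys group (79.9 ± 16.8 CPM, SD, n = 4) and its lowest in the Cse-/- no-Cys group (15.4 ± 9.94 CPM, SD, n = 4), with 32.9 ± 6.02 CPM (SD, n = 3) when these mice lacked tryptophan. Cyp2e1 stayed between 11243 and 14644 CPM on average in all 6 groups, the lowest and highest being the no-Cys and no-Trp groups of Cse-/- mice.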

How the data were processed

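Per the labels, the submitters' processing notes name HISAT2 2.1.0, HTSeq 0.11.0 and the GRCm38 genome, and the values deposited by the authors are raw counts of reads per gene, with no normalization. Columns were assigned to groups through the study's list of mice, and 1 column was not used. Each mouse was a separate animal, and the labels give no litter or extraction batch for a mouse (littermates were used where possible, per the study). The p-values of the main fit set a difference against the spread between mice, estimated over all 6 groups. No pair of libraries of a group agreed within sampling noise (25 pairs, chi-square from 9.60 to 64.2 per gene with at least 20 counts).

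Counts were analysed in R 4.3.3 with edgeR 4.0.16. Genes with low counts were removed by filterByExpr (min.count 10, min.total.count 15), and the rest were scaled by TMM and fitted over all 6 groups with a quasi-likelihood model, with Benjamini-Hochberg adjustment over the 14759 genes tested and a threshold of 0.05. The SE was derived from the log2 fold change and its F statistic. CPM values are TMM-scaled. Alternatives were RLE and upper-quartile factors, DESeq2 1.42.0, other filters, a threshold of 0.01, only the groups compared, thinning to 11785740 counts and each library left out. The model was tested on simulated counts. Exon lengths, coordinates and shared 61-base words are from GENCODE M21. Full statistics are given for the highest member per kb of each subfamily, textbook index genes of the receptors, up to 12 called members in each direction by genotype on the no-Cys diet, and up to 4 in each direction in the other comparisons. The members and gene lists were chosen with earlier results of these data known. The periportal and haem synthesis lists are not reported here as a whole.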

Additional observations from a re-analysis of the deposited data

Results flagged for a closer look

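In groups of 4 livers, the highest or lowest value of a member was set against Dixon's 95% critical value for its gap to the nearest liver over the whole range. Chance gives about 1 such value in 20 groups, and 17 combinations of member and group (13.8% of those tested) passed. Of the 17, mouse av08 of the Cse-/- no-Cys group gave 7. It was low in Cyp1a1 (0.885 CPM, others 1.74 to 1.83 CPM) and Cyp3a59 (59.2 CPM, others 136 to 149.9 CPM). It was high in Cyp2a22 (59.1 CPM), Cyp2b9 (332 CPM), Cyp2d40 (30.2 CPM), Cyp2j6 (79.3 CPM) and Cyp3a13 (269 CPM, others 126 to 143 CPM). In the same group av07 was high in Cyp2d34 (1.05 CPM).

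In the Cse-/- no-Trp group with BSO, av12 was high in Cyp2a22 (24.5 CPM), Cyp2a4 (13.3 CPM) and Cyp2b9 (91.3 CPM), and av10 was low in Cyp2j9 (7.56 CPM). In the Cse+/- no-Cys group, av04 was high in Cyp1a1 (2.05 CPM, others 0.775 to 0.933 CPM), av01 in Cyp2c39 (9.72 CPM) and Cyp3a25 (1229 CPM), and av02 in Cyp2d9 (1665 CPM), and av03 was low in Cyp2c68 (102 CPM).

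The genotype effect differed between the no-Cys and no-Trp diets, by the interaction term, in Cyp2a5 (1.79), Cyp2d40 (-2.02), Cyp2c23 (-1.25), Cyp2r1 (-1.12) and Cyp2d9 (-0.69), in log2 units.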

How the results depend on the processing

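Of 736 values of single members under the alternatives, over 45 results, no called value changed sign, 622 stayed on the same side of the threshold, 99 lost and 15 gained a call. No median over the members moved by more than 0.26, the pooled SD of the library medians. The cause of the changes in counts below was not tested. Shares in parentheses are those of all genes called in the same direction at the same setting. At an adjusted p under 0.01, 3 members were higher by genotype under the no-Cys diet (6.04%), 1 was higher (1.60%) and 2 lower (1.57%) on the no-Cys than on the no-Trp diet in Cse-/- mice, 0 were higher by genotype on the no-Trp diet (0.210%), 1 had a negative interaction (0.678%), and against BSO 0 were higher (0.163%) and 1 lower (0.108%). With DESeq2, 10 were lower on the no-Cys than on the no-Trp diet (3.5%), 2 lower with BSO (0.586%), 2 had a positive interaction (1.73%), and 2 were higher (1.58%) and 7 lower (1.53%) against BSO. With no filter, the no-Cys against the no-Trp diet gave 4 higher (2.07%) and 12 lower (3.18%), BSO 2 higher (0.495%) and 2 lower (0.550%), genotype on the no-Trp diet 5 higher (1.07%), the interaction 2 positive (1.17%), the contrast with BSO 2 higher (0.761%) and 6 lower (1.36%), and the no-Cys against the control diet 1 higher (0.768%). With only the groups compared, 1 was higher (1.82%) and 2 lower (2.0%) on the no-Cys than on the no-Trp diet, 1 higher by genotype on the no-Trp diet (0.287%), 2 negative in the interaction (1.62%) and 2 higher against BSO (2.01%). With thinned counts 2 had a positive interaction (1.81%). Without av08 and av15, an alternative chosen after seeing the data, 12 were lower on the no-Cys than on the no-Trp diet (6.81%), 0 higher by genotype on the no-Trp diet (0.613%), 9 negative in the interaction (4.09%), and 3 higher (4.0%) and 10 lower (4.34%) against BSO.

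Leaving out each liver in turn gave 3 to 6 higher and 10 to 16 lower by genotype on the no-Cys diet, 1 to 3 higher and 2 to 15 lower on the no-Cys than on the no-Trp diet, and 0 to 2 higher by genotype on the no-Trp diet. It gave 1 to 2 positive and 2 to 9 negative interactions, 0 to 1 higher and 1 to 9 lower against BSO, and 0 to 1 higher on the no-Cys than on the control diet. Of the single livers left out, shares of all genes were computed only for av08, and those of lower or negative calls are given above. For the other livers, a change in these counts cannot be told apart from a general change in calls. No paired analysis was possible because the labels give no litter or extraction batch for a mouse. The count columns carry mouse numbers and not the replicate numbers of the sample titles. Members near 1 CPM, such as Cyp1b1, Cyp2c55, Cyp2d11 and Cyp2d34, rest on few counts.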
